A study of Mus musculus with 21 samples.

Results

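The second day of BIO treatment in aggregated mouse nephron progenitors was examined in 6 of the 21 arrays of the series. Members were chosen by their titles: 3 arrays of aggregates given 4 µM BIO for 24 h and 3 arrays of aggregates given the same dose for 24 h and again for another 24 h. They are called the 24 h arrays and the 48 h arrays here, and all 18193 genes with a named probe set were compared. The cells of every group were sorted as Six2-positive from kidneys of E16.5 mouse embryos that carried the Six2GFPcre transgene on a bacterial artificial chromosome, in a mixed background strain. A sample held 40000 cells. Those of the aggregate groups were pelleted together and kept in DMEM with 10% fetal bovine serum, while freshly sorted cells were not cultured. Also used, as values beside the comparison, were 3 arrays each of freshly sorted cells, of aggregates kept 24 h in DMSO (the solvent of BIO), and of aggregates given BIO for 24 h and then DMSO for 24 h. The remaining 2 groups, dispersed cells in DMSO or BIO, entered only the estimate of spread.

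Several limits belong to the model. The labels name no aggregates kept in DMSO for 48 h, so a second day of BIO cannot be told apart from a second day in culture and a change of medium. The RNA went through 2 rounds of amplification. Arrays are called biological replicates without mention of separate litters, sorts or cultures, so p-values measure only the spread between arrays, which may be technical. The samples are bulk, so fewer cells of a type and less RNA per cell cannot be told apart.

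BIO, an indirubin derivative, inhibits the kinase GSK3. GSK3 marks beta-catenin for destruction, so its inhibition lets beta-catenin accumulate, enter the nucleus and act with TCF/LEF factors on Wnt target genes. In the embryonic kidney, Six2-positive progenitors cap the tips of the ureteric bud. Wnt9b from the bud induces some of them to form pretubular aggregates, which express Wnt4, become epithelial renal vesicles and give rise to the nephron, from the podocytes of the glomerulus to the distal tubule. That epithelial step requires that the canonical signal does not persist. The comparison asks what changed when activation lasted a second day.

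Each value is a signal, meaning the deposited intensity after normalization between arrays, and each change is a difference of mean log2(signal + 1), 48 h minus 24 h, ± its standard error (n = 3 arrays per group). A gene rose or fell where limma's p-value, adjusted by Benjamini-Hochberg over all genes, was below 0.05. Background is a signal of 41.8, below which 95% of the values of 27 probe sets for bacterial spike-in controls lay. Where one group mean lay below it, the change is given as at least so many fold. Before normalization, the median deposited intensity ran from 87.2 to 98.6 over the 6 arrays.

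Array properties moved with the comparison. The control signals and ratios here are of the deposited intensities, before normalization. The 3' beta-actin control had signals of 2669, 3040 and 5410 on the 24 h arrays and 11270, 6344 and 7290 on the 48 h arrays. The Gapdh ratio of 3' to 5' control signal was 15.2, 11.4 and 13.6 against 6.2, 9.57 and 8.66. The actin 3' to 5' ratio had means of 17.1 at 24 h and 11.3 at 48 h, and the share of genes above background was 79.6, 79.4 and 78.8% against 76.4, 78.5 and 78.3%. No 24 h array reached the range of the 48 h arrays in any of the 4 measures, and an exact two-sided permutation test gave p = 0.1 for each, the smallest value 3 against 3 arrays allow. The first 48 h array lay farthest from the 24 h group in all 4. Their part in the results was not tested. Counts with the actin signal and the Gapdh ratio as a covariate, each as log2 after normalization, are given below. There the covariate is largely tied to the group, and the median standard error grew from 0.205 to 0.313 and 0.320.

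**Figure D1:**
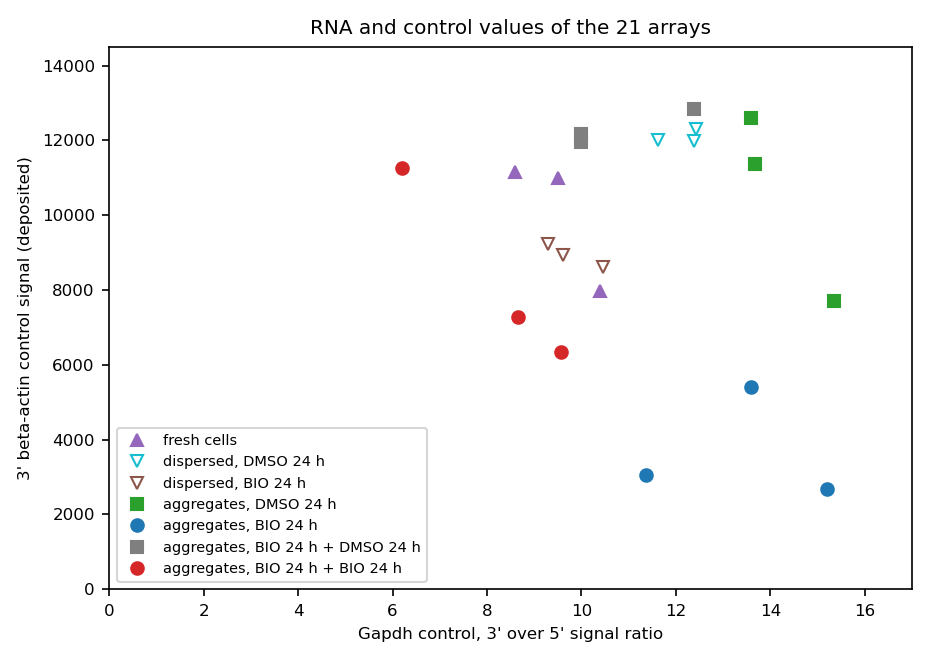
Signal of the 3' beta-actin control (vertical axis, deposited signal) against the Gapdh 3' over 5' signal ratio (horizontal axis), one point for each of the 21 arrays, with colour and shape giving the group. The 24 h arrays (blue circles) lie between 2669 and 5410 in actin signal and the 48 h arrays (red circles) between 6344 and 11270, at lower Gapdh ratios.

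Over the second day of BIO all 19 measured genes of the mitosis list fell. The count was 15 with the mean of probe sets and also 15 with the 6 arrays fitted alone. Of 21 progenitor genes 8 fell, Six2, Itga8 and Eya1 among them, where 12.8% of all genes fell. Of 19 genes of epithelial junctions and keratins 8 rose, where 8.05% of all genes rose. Among genes that answer to canonical Wnt signalling, Wif1, Apcdd1, Nkd1 and Rnf43 rose. Axin2 and Lef1 were also higher, by 0.35 and 0.41, but did not pass the test. Ligand genes changed in both directions. Inhba, Tgfb2, Wnt5a, Wnt6 and Bmp4 were higher at 48 h than at 24 h of BIO. Of these, Inhba and Tgfb2 were also high in aggregates kept 24 h in DMSO (means of 1137 and 2094). Nrg1 and Cxcl10 were lower, as were Vegfa, Dll1 and Bmp7, whose calls were lost with either covariate. The largest rise above background in both groups was that of C1qtnf3, 79.4-fold, and the largest such fall that of Tafa2, 14.3-fold. C1qtnf3 had a mean of 331 in aggregates kept 24 h in DMSO, between its 24 h and 48 h means of BIO.

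Of the 18193 genes, 3792 changed (20.8%), 1464 higher (8.05%) and 2328 lower (12.8%). Each list count below stands beside these shares. At least a 2-fold change was called for 1266 genes (6.96%), 559 higher (3.07%) and 707 lower (3.89%). The median difference over all genes was -0.08. The groups did not overlap in 6167 genes (33.9%). With the actin control as a covariate 1481 genes changed, 821 higher and 660 lower. With the Gapdh ratio 1308 changed, 718 higher and 590 lower. Without the first 48 h array 3094 changed, 1287 higher and 1807 lower. With the deposited scaling in place of quantile normalization, 1723 were higher and 1865 lower. Of the genes called below, the mean of all probe sets in place of the brightest also ended the calls of Lgr5, Tpm1, Etv5, Fosl1, Fosl2, Ndrg1, Vegfa, Pfkp, Fgfr3, Srxn1, Cdkn1b, Smoc2, Pax8, Bmp7, Notch3, Rfng, Gclc, Cx3cr1 and Dcx. The 6 arrays fitted alone ended, among others, those of Diaph3, Myh3, Cdh2, Snai2, Tagln, Krt19, Col2a1, Etv5, Fos, Fosl1, Fosl2, Vegfa, Aqp1, Hsph1, Mcm5, Mcm7 and Plk1.

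**Figure D2:**
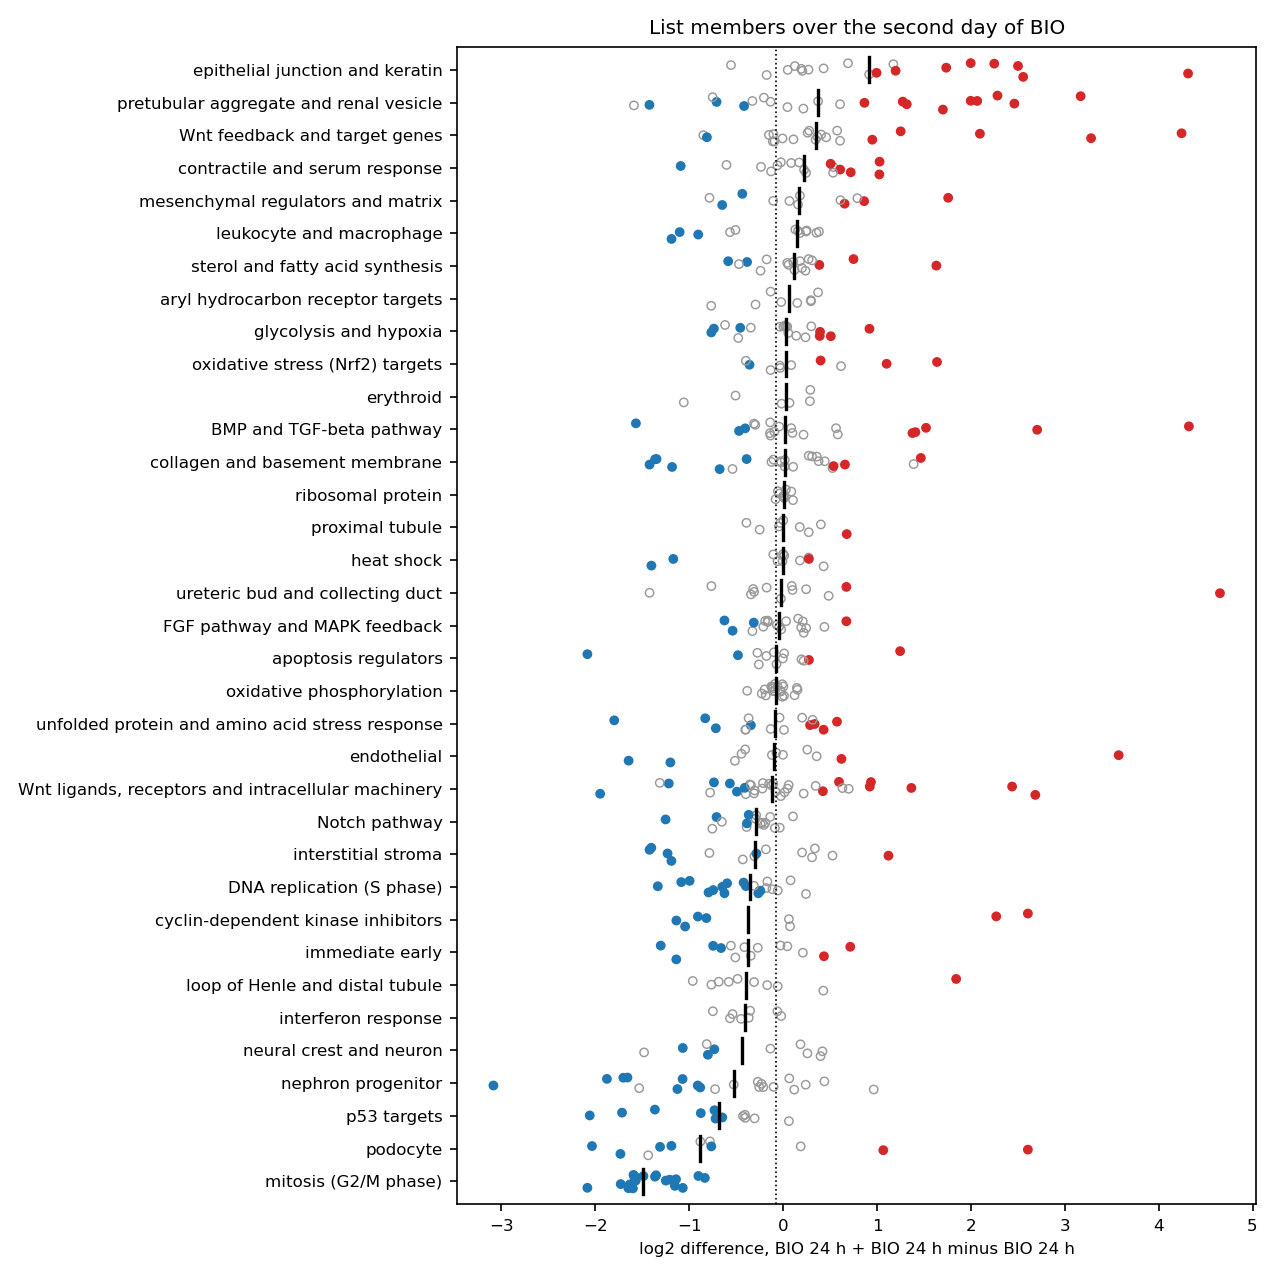
Log2 differences (48 h minus 24 h of BIO) of the members of 35 gene lists, one point per gene; red points rose, blue points fell and open points did not pass the test. Black bars are list medians and the dotted line is the median of all genes, -0.08; the mitosis median lies lowest at -1.49 and the epithelial median highest at 0.92.

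Genes are first named by their fitted log2 difference, 15 in each direction. The choice required groups that did not overlap, so the separation of these genes is not a result. In 12 of these rises and 12 of these falls 1 group was below background, where the difference gives no order of size. The rises measured above background in both groups were C1qtnf3, Pygl and Wif1. C1qtnf3, which encodes a secreted adipokine-like protein, had signals of 54.7, 70.7 and 76.2 at 24 h and 5234, 6077 and 4854 at 48 h, a rise of 6.31 ± 0.29 (adjusted p = 1.45e-09). All 3 arrays of 48 h stood above the 159 to 353 of aggregates moved to DMSO. Aggregates kept 24 h in DMSO had a C1qtnf3 mean of 331, above the 24 h arrays of BIO. Pygl, the liver-type glycogen phosphorylase, went from 69.9, 84.4 and 73.9 to 3646, 4184 and 4523, 53.4-fold higher (adjusted p = 1.13e-09). It read 589 to 846 in aggregates moved to DMSO, between the groups.

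Prss56, a serine protease gene, had signals of 9.69, 62.0 and 5.03 at 24 h and 884, 923 and 1085 at 48 h, at least 19.7-fold higher (adjusted p = 2.49e-05). The second 24 h array was thus above background. The hair keratin gene Krt33a rose from 4.95 to 7.49 up to 365 to 501, at least 9.87-fold (adjusted p = 8.02e-06). The retinaldehyde dehydrogenase gene Aldh1a1 rose at least 6.93-fold (adjusted p = 2.46e-05), from 10.3 to 20.4 up to 176 to 414. All 3 of these genes were below background on every array of aggregates moved to DMSO.

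Stmn4, of the stathmin family of tubulin-binding proteins, rose at least 13.0-fold (adjusted p = 1.15e-06), and the neutrophil-attracting chemokine gene Cxcl5 at least 3.65-fold (adjusted p = 1.86e-05). Aggregates kept 24 h in DMSO had a Stmn4 mean of 342, against 19.7 at 24 h and 558 at 48 h of BIO. Gata3, a transcription factor of the ureteric bud, read 2.81, 2.93 and 2.79 at 24 h and 203, 55.0 and 77.8 at 48 h, at least 2.26-fold higher (adjusted p = 8.76e-05). The first 48 h array was the highest. The T-box gene Tbx1 rose at least 1.91-fold (adjusted p = 9.03e-06). Some of these genes were also above background in aggregates moved to DMSO. Hs3st3a1, a heparan sulfate sulfotransferase gene, rose at least 4.76-fold (adjusted p = 0.000244) to 142 to 273, against 101 to 278 after the move to DMSO, and the phospholipase gene Pla2g5 rose at least 2.52-fold (adjusted p = 2.75e-07) to 97.5 to 123, against a mean of 69.1. Gdap10 rose at least 7.19-fold (adjusted p = 0.00104), a call lost with either covariate (adjusted p = 0.512 and 0.197).

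Of the falls, Tafa2, Fam107a and Adcy8 were measured above background in both groups. Pcdh8, a protocadherin gene, had signals of 296, 254 and 239 at 24 h and 2.61, 21.9 and 26.6 at 48 h, at least 6.13-fold lower (adjusted p = 4.59e-05). No 48 h array was above background, whereas aggregates moved to DMSO read 733 to 2157. Tafa2, which encodes a secreted chemokine-like protein, fell from 1297, 850 and 1130 to 57.4, 77.5 and 91.9, a change of -3.84 ± 0.17 (adjusted p = 1.13e-09). Fam107a, an actin-binding stress protein gene, fell from 1523, 1619 and 1729 to 112, 148 and 151, 11.9-fold lower (adjusted p = 7.7e-08). Both genes were lower on every 48 h array than after the move to DMSO (500 to 616 and 296 to 646).

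Plcd4, a phospholipase C gene, fell at least 6.60-fold (adjusted p = 2.45e-07), Inka2, an inhibitor of PAK4 kinase, at least 3.81-fold (adjusted p = 8.13e-07), and the adenylyl cyclase gene Adcy8 fell 8.99-fold (adjusted p = 2.2e-07). Plcd4 read 13.3 to 18.2 and Inka2 9.95 to 14.2 in aggregates moved to DMSO, so both were below background there as well. The secreted glycoprotein gene Olfm4 fell at least 4.08-fold (adjusted p = 2.03e-07), the adhesion receptor gene Vcam1 at least 2.37-fold (adjusted p = 7.59e-06, though not with the mean of its probe sets) and Nrg1, which encodes a ligand of ErbB receptors, at least 1.72-fold (adjusted p = 1.51e-06). Olfm4 and Vcam1 kept signals of 90.1 to 210 and 77.1 to 102 after the move to DMSO. The chemokine gene Cxcl10 fell at least 2.45-fold (adjusted p = 3.53e-08), the lipase-related gene Pnliprp2 at least 1.74-fold (adjusted p = 1.49e-06) and Ms4a6d at least 1.63-fold (adjusted p = 0.00186). Diaph3, a formin gene, fell at least 3.43-fold (adjusted p = 0.000137, or 0.0505 with the actin covariate). The lectin gene Clec10a fell at least 2.24-fold (adjusted p = 0.000393, or 0.122 with the Gapdh covariate) and Myh3, an embryonic myosin heavy chain gene, at least 2.44-fold (adjusted p = 0.00188, or 0.231 and 0.291 with the covariates).

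**Figure D3:**
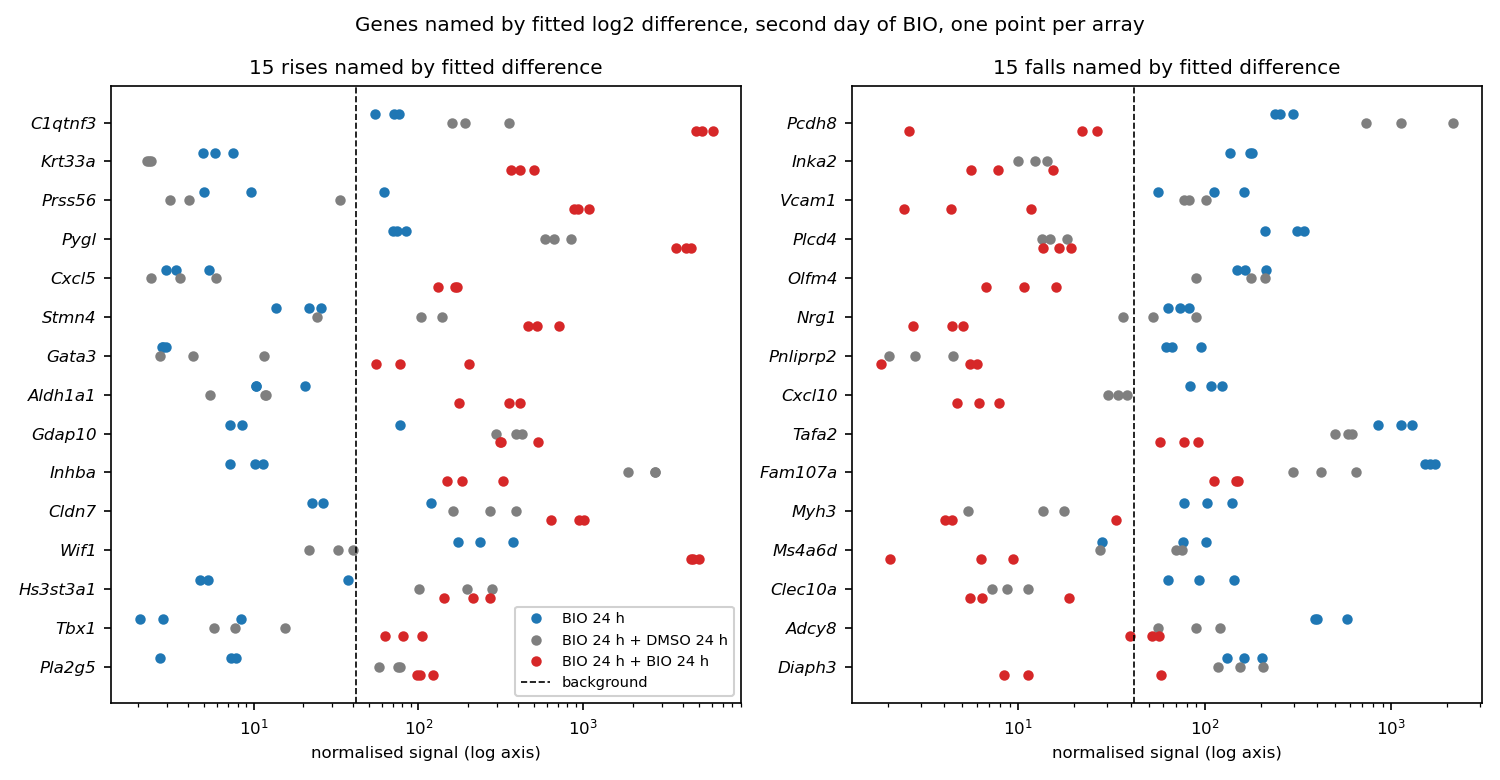
Normalised signal (horizontal log axis) of the 15 rises and the 15 falls named by fitted log2 difference, one point per array, for 24 h of BIO (blue), BIO then DMSO (grey) and 48 h of BIO (red), with background dashed; where 1 group lies left of that line the order of genes is not one of size. The blue and red points of a gene do not overlap, as the choice of genes required; C1qtnf3 lies at 54.7 to 76.2 in blue and 4854 to 6077 in red.

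Cell cycle genes fell. All 19 mitosis genes measured were lower at 48 h, with a median of -1.49, where 12.8% of all genes fell. Ttk, the spindle checkpoint kinase Mps1, had signals of 1435, 1313 and 1182 at 24 h and 378, 338 and 474 at 48 h (-1.73 ± 0.13, adjusted p = 2e-07). Bub1, a kinase of the same checkpoint, read 4139, 3926 and 3761 against 887, 1226 and 1824 (-1.65 ± 0.17, adjusted p = 4.44e-06). In both genes every 48 h array was below every 24 h array, and the aggregates moved to DMSO (1042 to 1187 and 3357 to 3529) were above the 48 h arrays.

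Birc5, which encodes survivin of the chromosomal passenger complex, fell from 1877, 1761 and 1292 to 376, 337 and 439 (-2.09 ± 0.21, adjusted p = 3.04e-06). Aurkb, the kinase of that complex, fell from 2027 to 2118 down to 496 to 1014 (-1.64 ± 0.21, adjusted p = 2.99e-05). The members with the smallest falls were Cdc20, the activator of the anaphase-promoting complex, at -0.83 ± 0.12 (adjusted p = 8.6e-05) and Top2a, the topoisomerase that untangles chromosomes, at -0.90 ± 0.13 (adjusted p = 0.000103). The third 48 h array was the highest of its group for Top2a, 7006 against 4809 and 4327, and still below the lowest 24 h array at 9656. Top2a did not pass with the mean of its probe sets or with the 6 arrays fitted alone. The list count was 19 of 19 without any single array. It was 16 with the actin covariate, 18 with the Gapdh covariate and 15 each with these 6 arrays fitted alone and with the mean of probe sets, where Cenpe, a kinesin of the centromere, turned from -1.59 to 0.09. Set against aggregates moved to DMSO, which share the 48 h arrays with this comparison, Ttk and Bub1 were lower where BIO was kept, with log2 differences of -1.5 and -1.44 (limma, adjusted p = 4.65e-07 and 1.26e-05; 20.4% of all genes passed in that comparison).

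Many mitosis genes are controlled through CCAAT boxes, bound by NF-Y, and through the cell cycle genes homology region (CHR), bound by the DREAM and MuvB complexes. Promoters from RefSeq (GRCm38.p6, the 250 bases before the start) were used for 15 of the 19 genes. The letters CCAAT, on either strand, were in 13 of them, against 33.9% of 32841 promoter windows of the same length. A chromosome left out of the search for listed genes was kept in those 32841 windows. The CHR was searched as TTTGAA on either strand, which lies within one form of the TCF/LEF core used further on, and as its variant TTTAAA, which reads the same on both strands. CHR letters were in 9 of 15 against 25.2%, and both motifs in 8 of 15 against 8.8%. These motifs were chosen after the data were seen, and a match is a description. Shown because these genes fell together are the last 150 bases before the start of 4 of them, chosen after the data were seen. Ttk (chr9:83834539-83834688, plus strand) and Bub1 (chr2:127831860-127832009, minus strand) had 2 of the 4 largest falls and hold CCAAT. Plk1 (chr7:122159285-122159434, plus strand) and Cdc20 (chr4:118437344-118437493, minus strand) hold CHR letters as well. Each runs 5′ to 3′ on the gene's strand, and capitals mark CHR letters and CCAAT, which reads ATTGG where it lies on the other strand.
Ttk: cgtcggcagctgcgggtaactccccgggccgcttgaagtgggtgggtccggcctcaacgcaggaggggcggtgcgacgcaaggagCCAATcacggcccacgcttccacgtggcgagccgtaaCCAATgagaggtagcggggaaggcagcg
Bub1: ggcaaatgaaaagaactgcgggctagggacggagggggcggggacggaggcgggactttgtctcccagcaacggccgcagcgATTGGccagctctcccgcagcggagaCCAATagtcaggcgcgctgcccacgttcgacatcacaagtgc
Plk1: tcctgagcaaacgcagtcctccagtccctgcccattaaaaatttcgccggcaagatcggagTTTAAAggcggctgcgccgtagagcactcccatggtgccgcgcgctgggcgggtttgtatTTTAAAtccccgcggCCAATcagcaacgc
Cdc20: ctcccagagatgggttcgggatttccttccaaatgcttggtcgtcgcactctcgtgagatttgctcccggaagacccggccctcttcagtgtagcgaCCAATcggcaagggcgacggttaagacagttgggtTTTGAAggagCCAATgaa

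The DNA replication list had a smaller median. Of 20 genes 13 fell and 0 rose, with a median of -0.35. Tyms, thymidylate synthase, had signals of 455, 479 and 598 at 24 h and 172, 193 and 243 at 48 h (-1.33 ± 0.18, adjusted p = 6.2e-05). Rrm1, the large subunit of ribonucleotide reductase, fell from 6309, 5912 and 6215 to 3232, 3418 and 4020 (-0.79 ± 0.08, adjusted p = 3.45e-06). The groups did not overlap for either gene, and neither passed with the mean of its probe sets. Gins1, of the replicative helicase, fell 2.12-fold (adjusted p = 1.86e-05) and Cdc6, the licensing factor, 1.99-fold (adjusted p = 0.00016, or 0.0563 with the Gapdh covariate). Among the helicase subunits Mcm2 to Mcm7 the changes ran from -0.40 (Mcm5) to 0.08 (Mcm4), and Mcm5 and Mcm7 passed, though not with either covariate. With the actin and the Gapdh covariate 7 and 4 list members fell, and 8 with the mean of probe sets.

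Inhibitors of cyclin-dependent kinases went both ways. Cdkn1c, the p57 inhibitor, had signals of 318, 319 and 365 at 24 h and 2319, 1941 and 1877 at 48 h, 6.09-fold higher (adjusted p = 6.09e-07). Every 48 h array was above every 24 h array. So were aggregates kept 24 h in DMSO (mean 1623), those moved to DMSO (1187 to 2531) and fresh cells (mean 2722). Cdkn2b, the p15 inhibitor, rose at least 3.35-fold (adjusted p = 0.00141), though not with the 6 arrays fitted alone. Its mean in aggregates kept 24 h in DMSO was 150, against 38.1 at 24 h and 188 at 48 h of BIO. Cdkn1b, the p27 inhibitor, fell by 1.14 (-1.14 ± 0.21, adjusted p = 0.000923, or 0.0886 with the Gapdh covariate), and Cdkn3 fell by 0.91 (adjusted p = 0.000877). Cdkn2d and Cdkn2c fell with calls that ended with either covariate, and the difference of Cdkn2c turned from -0.82 to 0.04 with the Gapdh covariate. Cdkn2d was also lost without the first or the second 24 h or the second 48 h array, and Cdkn2c without the first or the third 24 h or the first 48 h array (largest adjusted p = 0.0727 and 0.148). Without the first 24 h array 2 of the 8 measured inhibitor genes fell. Cdkn1a, the p21 inhibitor and best known p53 target, did not pass (0.06).

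Of 12 p53 targets 7 fell and 0 rose, with a median of -0.68, where 12.8% of all genes fell. Gtse1, a regulator of p53 and of microtubules that is itself most abundant in dividing cells, had signals of 611, 653 and 517 at 24 h and 160, 116 and 151 at 48 h, 4.17-fold lower (adjusted p = 4.62e-08). Eda2r, a death receptor of the TNF receptor family, fell from 4420, 3586 and 3722 to 1076, 1208 and 1277 (-1.72 ± 0.20, adjusted p = 1.2e-05). Neither gene's groups overlapped. Bbc3 and Pmaip1, the proapoptotic PUMA and Noxa, fell 1.84-fold and 2.58-fold (adjusted p = 0.00244 and 0.013), and both calls were lost with either covariate. The list count was 5 with the actin and 3 with the Gapdh covariate. After the move to DMSO Eda2r read 810 to 1194 and Bbc3 202 to 263, and neither passed for BIO kept minus removed (0.29 ± 0.20 and 0.10 ± 0.18).

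**Figure D4:**
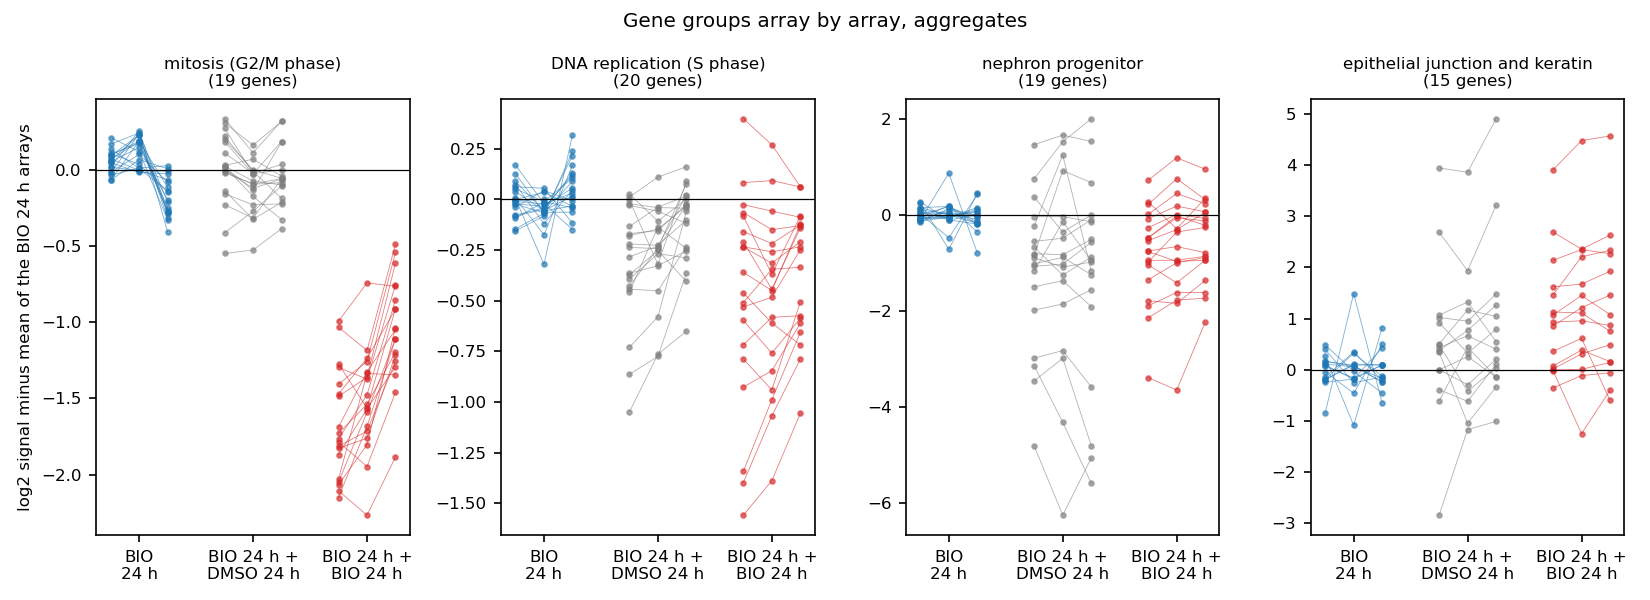
Log2 signal minus the gene's mean over the 24 h arrays (vertical axis) for the members of 4 lists above background in at least 1 of the 2 groups compared, 1 line per gene over the 3 arrays of each group. For mitosis all red points of the 48 h arrays lie below 0, while the grey points of aggregates moved to DMSO scatter around 0; the list medians at 48 h are -0.35 for DNA replication, -0.53 for progenitor and 0.92 for epithelial genes, over all measured members.

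Wnt feedback and target genes, many of which encode inhibitors of the pathway, were measured for 21 of 22 members, and 5 rose and 1 fell (median 0.35, against rises in 8.05% of all genes). With the mean of probe sets or the deposited scaling 7 rose and 1 fell, and with either covariate 4 rose and 0 fell. Axin2, the scaffold of the beta-catenin destruction complex, had signals of 3733, 3798 and 3056 at 24 h and 5059, 4223 and 4165 at 48 h. Its groups did not overlap and the difference, 0.35 ± 0.17, did not pass (adjusted p = 0.168). Lef1, a transcription factor partner of beta-catenin, read 2361, 2517 and 1741 against 2814, 2734 and 3124 (0.41 ± 0.17, adjusted p = 0.115), likewise without overlap. Fresh cells had means of 1142 and 334. The inhibitor genes Notum (0.36) and Dkk1 (0.28), the transcription factor gene Sp5 (-0.10) and the receptor gene Tnfrsf19 (0.46) also did not pass.

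Wif1, which encodes a secreted protein that binds Wnt ligands, had signals of 238, 374 and 174 at 24 h and 4522, 5060 and 4657 at 48 h, 19.0-fold higher (adjusted p = 1.46e-06). It was below background in aggregates moved to DMSO (21.7 to 40.0) and in fresh cells. Apcdd1, a membrane inhibitor of Wnt receptors, rose from 2176, 3426 and 2638 to 11190, 11700 and 11740, 4.27-fold (adjusted p = 1.15e-06). Nkd1, which acts on Dishevelled, rose from 1270, 1592 and 1760 to 4128, 3676 and 3170, 2.38-fold (adjusted p = 5.59e-06). For all 3 genes the lowest 48 h array was above the highest 24 h array, and both Apcdd1 (1159 to 1582) and Nkd1 (909 to 963) were lower after the move to DMSO than on any 24 h array.

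Rnf43, a ubiquitin ligase that removes Frizzled receptors, read 22.8, 6.37 and 50.6 at 24 h and 199, 177 and 231 at 48 h, at least 4.44-fold higher (adjusted p = 0.00209, or 0.206 with the actin covariate). Lgr5, the R-spondin receptor that opposes Rnf43, rose from 95.1 to 136 up to 213 to 234 (0.95 ± 0.21, adjusted p = 0.00363), a call lost with both covariates (adjusted p = 0.061 and 0.147). Sfrp2, a secreted antagonist, was the 1 member that fell, from 1120 to 1273 down to 567 to 790 (-0.81 ± 0.17, adjusted p = 0.00274, or 0.195 and 0.218 with the covariates). In aggregates moved to DMSO Sfrp2 read 5361 to 6107, above both groups. A TCF/LEF core, CTTTGAT or CTTTGAA on either strand, was in 0 of the 4 genes among these 6 with a promoter window used, against 7.5% of all windows. The search covered 250 bases before the start only, and left out the same chromosome for the listed genes but not for all windows.

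Of the 34 Wnt ligands, receptors and intracellular components, 7 rose and 6 fell (median -0.11), or 5 and 1 with the mean of probe sets. Wnt5a, a ligand best known for non-canonical signalling, had signals of 202, 197 and 159 at 24 h and 1175, 1086 and 1336 at 48 h, 6.43-fold higher (adjusted p = 1.09e-07). Ror1, a tyrosine kinase receptor for Wnt5a, rose from 353, 279 and 287 to 1715, 1648 and 1609, 5.42-fold (adjusted p = 3.68e-08). Both genes were higher on every 48 h array, and in aggregates moved to DMSO they read 247 to 358 and 460 to 685. Wnt6 rose from 1032, 1098 and 1248 to 2780, 3210 and 2716, 2.58-fold (adjusted p = 4.87e-07), and read 147 to 174 after the move to DMSO.

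Wnt4 did not pass, with 4189, 4877 and 5764 against 5645, 4856 and 4728 and groups that overlapped (0.05 ± 0.18, adjusted p = 0.897). The other probe set of Wnt4, which is dimmer, did pass and was lower at 48 h. Rspo1, an enhancer of Wnt signalling at Lgr receptors, fell from 369, 362 and 323 to 87.6, 70.7 and 118, 3.86-fold lower (adjusted p = 2.45e-07). Its groups stood far apart. Among Frizzled receptors Fzd4 fell by 1.22 (-1.22 ± 0.10, adjusted p = 6.21e-07), Fzd2 fell by 0.49, and Fzd6 rose by 0.92 (0.92 ± 0.15, adjusted p = 0.000391). The mean of all probe sets ended the calls of Fzd4 and Fzd2, but not that of Fzd6. Gsk3a (-0.12), Gsk3b (-0.10) and Ctnnb1, which encodes beta-catenin (0.02), did not pass.

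Progenitor genes fell too. Of 21 measured, 8 fell and 0 rose (median -0.53), where 12.8% of all genes fell. The counts of falls were 9 and 8 with the actin and the Gapdh covariate. Six2, the factor that keeps progenitors undifferentiated, had signals of 1906, 1675 and 1804 at 24 h and 407, 526 and 541 at 48 h, 3.67-fold lower (adjusted p = 5.43e-08). The groups did not overlap, and aggregates moved to DMSO lay between them at 760 to 975. Fresh cells had a mean of 8857 and aggregates after 24 h in DMSO 4659.

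Eya1, the cofactor of Six2, fell from 4459, 4274 and 3732 to 1206, 1159 and 1616 (-1.66 ± 0.14, adjusted p = 6.91e-07), a call lost with the mean of all probe sets. Itga8, the integrin through which progenitors meet the ureteric bud, fell from 4229, 4044 and 4231 to 1127, 1365 and 1363 (-1.70 ± 0.12, adjusted p = 6.14e-08). After the move to DMSO they read 1107 to 1612 and 1059 to 1423, in the range of the 48 h arrays or close to it. Meox2, a homeobox gene, fell from 87.3, 44.2 and 100 to 6.09, 4.93 and 14.8, at least 1.73-fold (adjusted p = 5.58e-06), and read 57.2 to 95.1 after the move. Wt1, Hoxc10, Crym and Uncx fell by 1.13, 1.07, 0.91 and 0.88. Cited1, a marker of the least committed progenitors, was below background on every array of both groups, and Osr1 had both means below background. Gdnf (-0.72) and Sall1 (-0.23) did not pass.

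Of the 21 pretubular aggregate and renal vesicle genes measured, 9 rose and 3 fell (median 0.37), 6 and 1 with either covariate. Over all genes 8.05% rose and 12.8% fell. Papss2, which makes the sulfate donor of the cell, had signals of 342, 466 and 275 at 24 h and 3145, 3104 and 3289 at 48 h, 8.99-fold higher (adjusted p = 1.02e-06). Irx3, an Iroquois homeobox gene of the forming tubule, rose from 235, 217 and 194 to 1078, 1290 and 1209, 5.51-fold (adjusted p = 4.36e-07). Emx2, a homeobox gene needed for kidney formation, rose from 216, 236 and 219 to 740, 982 and 1142, 4.19-fold (adjusted p = 3.48e-05). The groups did not overlap in any of the 3. After the move to DMSO Papss2 read 1306 to 2279, Irx3 1022 to 1359 and Emx2 964 to 1918, all above the 24 h arrays.

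Lhx1, a homeobox gene that the renal vesicle requires, did not pass, with 198, 346 and 177 against 192, 214 and 460 and overlapping groups (0.22 ± 0.32, adjusted p = 0.702). It read 934 to 1886 after the move to DMSO, above all 6 arrays. Cdh6, the cadherin of the early proximal domain, fell from 1504 to 1601 down to 518 to 609 (-1.42 ± 0.11, adjusted p = 2.43e-07), against 4411 to 4998 after the move. Pax8 (-0.42) and Dll1 (-0.71) were the other members that fell. Only Cdh6 fell without the second 24 h array or without the first 48 h array, where Pax8 and Dll1 were lost (largest adjusted p = 0.0804 and 0.125), and with either covariate. Dll1 was also lost without the first 24 h and without the second or the third 48 h array. The rises of Irx2, Greb1 and Sox11 were lost with either covariate. With the actin covariate the difference of Sox11 turned from 0.87 to -0.21, while those of Irx2 and Greb1 were 3.42 and 1.97. Irx2 was also lost without any array but the first 24 h array, Greb1 without the first or the third 24 h or the second or the third 48 h array, and Sox11 without the first or the second 24 h or the first 48 h array (largest adjusted p = 0.153, 0.146 and 0.119).

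**Figure D5:**
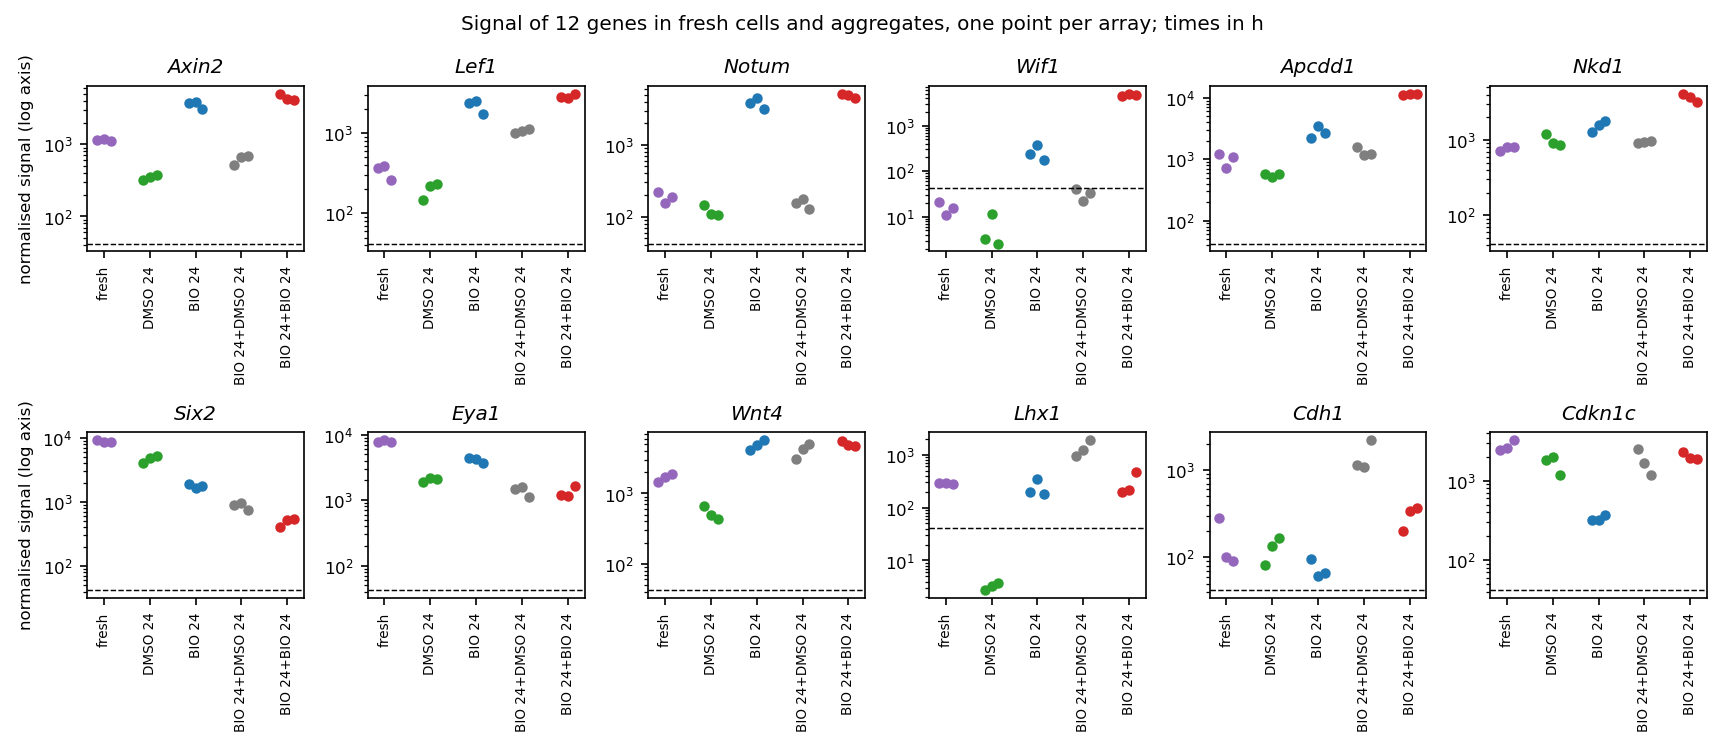
Normalised signal (vertical log axis) of 12 genes, one point per array, for fresh cells (purple), DMSO only (green), the 24 h arrays (blue), the move to DMSO (grey) and the 48 h arrays (red), with background dashed. Axin2, Lef1 and Notum did not pass between 24 and 48 h of BIO, Wif1 and Apcdd1 rose, and Six2 fell from 1675 to 1906 down to 407 to 541.

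Junction genes of epithelia rose. Of 19 measured, 8 rose and 0 fell (median 0.92), 7 with the actin and 8 with the Gapdh covariate, and 6 to 8 with 1 array left out. Cldn7, a tight junction claudin, had signals of 22.8, 118 and 26.2 at 24 h and 636, 943 and 1006 at 48 h, at least 14-fold higher (adjusted p = 1.86e-05). Ocln, occludin, rose from 160, 153 and 121 to 930, 737 and 891, 5.88-fold (adjusted p = 0.000162). Dsp, desmoplakin of desmosomes, rose from 1051, 898 and 1069 to 4413, 5101 and 4821, 4.75-fold (adjusted p = 2.03e-07). In each the lowest 48 h array was several times the highest 24 h array, and aggregates moved to DMSO lay below the 48 h arrays (162 to 393, 180 to 272 and 1299 to 2401).

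Cdh1, E-cadherin of adherens junctions, read 96.4, 60.9 and 66.0 at 24 h and 202, 340 and 371 at 48 h, 4.00-fold higher (adjusted p = 0.025). Its groups did not overlap, but the call was lost without the second or the third array of either group (largest adjusted p = 0.0779). After the move to DMSO Cdh1 read 1068 to 2205, and there it was higher than with BIO kept (kept minus removed -2.23 ± 0.60, adjusted p = 0.0132). Cldn6 rose by 1.74 (1.74 ± 0.26, adjusted p = 0.000169), Epcam, an epithelial adhesion molecule, by 1.20 (1.20 ± 0.18, adjusted p = 0.000138), and Krt19 went from 90.2 to 176 up to 210 to 273 (adjusted p = 0.0148), while Krt8 (-0.18) and Krt18 (0.92) did not pass. Krt19 was lost with the actin covariate (adjusted p = 0.221) and without the second 24 h or the first 48 h array (largest adjusted p = 0.0799). Esrp1, an epithelial splicing regulator, was called with both means below background, though not without the third 48 h array (adjusted p = 0.054).

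Markers of the ureteric bud, another epithelium of this kidney, had summed signals of 3797 to 4453 at 24 h and 4983 to 5074 at 48 h. Without Etv5, the brightest member, the sums overlapped, at 1941 to 2302 and 2045 to 2143. Of 13 measured 2 rose, Gata3 and Etv5 (0.67 ± 0.12, adjusted p = 0.000593), and 0 fell, while its receptor tyrosine kinase gene Ret (0.10) and its ligand genes Wnt11 (-0.31) and Wnt9b (-0.34) did not pass. The part of such cells in the epithelial result was not tested. Of 9 proximal tubule markers 1 rose, Aqp1, with 3 below background in both groups, and its call was lost with either covariate and without any of 4 arrays, the first or the second 24 h array and the second or the third 48 h array, where adjusted p reached 0.141. Of 10 loop of Henle and distal markers 1 rose, Wfdc2, a secreted protease inhibitor gene, from 455, 583 and 519 to 1666, 2340 and 1638 (3.59-fold, adjusted p = 0.000145), while 0 fell, or 1 without the first 48 h array. The median of this list was -0.40, and 4 members were below background in both groups. Without Wfdc2, its brightest member, the summed signal was lower at 48 h, at 511 to 546 against 352 to 433. With the mean of probe sets 1 rose and 2 fell.

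Podocyte markers fell in 5 of 11 cases and rose in 2 (median -0.88), where 12.8% of all genes fell and 8.05% rose. Foxc2, a forkhead factor of podocyte precursors, had signals of 250, 191 and 210 at 24 h and 93.7, 33.5 and 44.1 at 48 h, 4.10-fold lower (adjusted p = 8.75e-05). Its relative Foxc1 fell from 1293, 1299 and 1267 to 375, 365 and 421, 3.32-fold (adjusted p = 1.45e-09). After the move to DMSO both were above all 24 h arrays, at 1706 to 2445 and 2078 to 2388, against -5.26 ± 0.29 and -2.54 ± 0.08 for BIO kept minus removed (adjusted p = 2.54e-09 and 4.2e-12). Plce1, a podocyte phospholipase, and Tcf21, a factor of podocytes and stroma, fell 2.48-fold and 2.28-fold. Nphs1, nephrin of the slit diaphragm, did not pass (0.19). Cdkn1c, above, and Podxl rose, but 1 member rose without the first 24 h or the third 48 h array, where the call of Podxl was lost (largest adjusted p = 0.0913), as it was with either covariate.

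Of 14 stromal markers 5 fell and 1 rose (median -0.30), and their summed signal was 14300 to 15590 at 24 h and 7521 to 8091 at 48 h, without overlap. Aldh1a2, the brightest member, carried most of that drop, and without it the sum was 5107 to 5354 and 3231 to 3858. Foxd1, the factor of stromal progenitors, had signals of 883, 890 and 1096 at 24 h and 336, 448 and 307 at 48 h, 2.65-fold lower (adjusted p = 4.34e-06). Col3a1, a fibrillar collagen, fell from 1312, 1233 and 1254 to 532, 489 and 403, 2.68-fold (adjusted p = 9.38e-08). Aldh1a2, which makes retinoic acid, fell from 9104 to 10400 down to 4086 to 4289, 2.35-fold (adjusted p = 3.68e-08). The groups of these genes were apart, and Col3a1 read 3620 to 4409 after the move to DMSO. The platelet-derived growth factor receptors Pdgfra (-0.18) and Pdgfrb (-0.43) did not pass. Smoc2 was the member that rose, though not with the Gapdh covariate (adjusted p = 0.0676), and without the third 48 h array 2 members rose.

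Matrix genes were divided. Of 24 collagen and basement membrane genes 6 fell and 3 rose (median 0.02), with 5 rising without the third 48 h array. Lama1, the laminin chain that appears as tubules become epithelial, rose from 253, 234 and 287 to 663, 679 and 802, 2.77-fold (adjusted p = 0.000482). The basement membrane gene Nid2 fell from 202 to 224 down to 60.2 to 98.5, 2.54-fold (adjusted p = 1.47e-05), and Col2a1 2.57-fold (adjusted p = 0.000412), a call that both covariates ended. Lama1 was high and Nid2 low on every 48 h array, and the move to DMSO gave 1021 to 1309 and 600 to 709.

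Of 17 contractile genes 5 rose and 1 fell (median 0.22), where 8.05% of all genes rose. Cnn2, a calponin, had signals of 680, 750 and 720 at 24 h and 1545, 1629 and 1236 at 48 h (1.03 ± 0.15, adjusted p = 0.000156). Tpm1 and Tpm2, tropomyosins, went in opposite directions: Tpm1 rose 1.65-fold (adjusted p = 0.00335, or 0.0915 with the Gapdh covariate) and Tpm2 fell 2.13-fold (adjusted p = 8.6e-05). The smooth muscle gene Tagln rose from 83.3 to 159 up to 236 to 274 (1.03 ± 0.31, adjusted p = 0.0267), a call lost with either covariate and without the first 24 h array or the first or the third 48 h array (largest adjusted p = 0.136). All of these stayed below the DMSO group of 24 h, in which Tagln averaged 6475 and Cnn2 6245. Of the list, 2 fell without the third 48 h array.

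Of 12 mesenchymal genes 3 rose and 2 fell (median 0.17). Prrx1, a homeobox gene of mesenchyme, rose from 545, 546 and 420 to 1684, 1658 and 1741, 3.38-fold (adjusted p = 3.85e-07), with a mean of 1654 in aggregates kept 24 h in DMSO. The mean of all its probe sets did not pass. The cadherin genes Cdh11 and Cdh2 rose 1.82-fold and 1.57-fold (adjusted p = 7.53e-06 and 0.0115), Cdh2 not with either covariate or without the second 24 h or first 48 h array (largest adjusted p = 0.057). Snai2, a repressor of E-cadherin, fell 1.57-fold (adjusted p = 0.00428, or 0.0587 with the Gapdh covariate).

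In the BMP and TGF-beta pathway 5 of 20 genes rose and 3 fell (median 0.02). Among the ligands, Inhba, the activin A subunit, had signals of 7.22, 11.4 and 10.2 at 24 h and 327, 184 and 150 at 48 h, at least 4.88-fold higher (adjusted p = 2.03e-07). It was higher still after the move to DMSO, at 1877 to 2734, and in aggregates kept 24 h in DMSO, with a mean of 1137. Tgfb2 rose from 349, 309 and 306 to 2730, 1919 and 1764, 6.52-fold (adjusted p = 2e-06), and Bmp4 from 341 to 442 up to 932 to 1120 (1.38 ± 0.17, adjusted p = 2.69e-05). Aggregates kept 24 h in DMSO had a Tgfb2 mean of 2094, close to the 48 h mean of 2099. The Bmp4 signal was 801 to 1115 after the move to DMSO, overlapping the 48 h arrays.

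Bambi, a decoy receptor of the pathway, rose from 747, 860 and 633 to 2358, 2066 and 1982, 2.87-fold (adjusted p = 8.85e-06). Id4, an inhibitor of basic helix-loop-helix factors, rose by 1.41 (1.41 ± 0.11, adjusted p = 1.59e-07), while Id1 (0.09), Id2 (-0.04) and Id3 (0.22) did not pass. Fst, which encodes the activin antagonist follistatin, fell from 2814, 2470 and 2961 to 875, 979 and 921, 2.96-fold (adjusted p = 6.47e-07). Bmp7, the ligand that keeps progenitors alive, fell by 0.40 (-0.40 ± 0.13, adjusted p = 0.0417), a call lost with either covariate and without any of 4 single arrays, the first or the second 24 h array and the second or the third 48 h array (largest adjusted p = 0.144).

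In the fibroblast growth factor pathway most genes did not pass, as over all genes, of which 20.8% changed. Of 19 genes 1 rose and 3 fell (median -0.04), with 1 falling without the third 24 h array or the first or the third 48 h array, and 0 in either direction with the mean of probe sets. Etv5, a transcription factor downstream of the receptors, rose from 1857, 2254 and 1495 to 2886, 2906 and 3028 (1.59-fold), and the call was lost with the Gapdh covariate (adjusted p = 0.0799). The receptor gene Fgfr3 fell 1.54-fold (adjusted p = 0.00524, or 0.43 and 0.105 with the covariates). Feedback genes Spry1 (0.16), Spry2 (-0.16), Spry4 (-0.04) and Dusp6 (0.03) did not pass.

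In the Notch pathway 4 of 17 genes fell and 0 rose (median -0.29), where 12.8% of all genes fell. Heyl, an effector of the pathway, had signals of 978, 1233 and 1050 at 24 h and 361, 510 and 508 at 48 h, 2.38-fold lower (adjusted p = 0.00605). Dll1, a ligand, fell 1.63-fold (adjusted p = 0.0384), Notch3 1.31-fold (adjusted p = 0.0422) and Rfng, a Fringe glycosyltransferase gene, 1.29-fold (adjusted p = 0.03). Heyl's groups were far apart and those of the others closer. With either covariate 0 of the 4 passed. The count was 1 without the first 24 h array or the first or the third 48 h array, and 2 without the second or the third 24 h array. Jag1 (-0.20), Hes1 (-0.14) and Hey1 (-0.24) did not pass.

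Markers of cells outside the nephron lineage were in part below background. Of 12 leukocyte markers 3 fell, Cd68, Lyz2 and Cx3cr1, and 0 rose, while the list median was 0.14, against -0.08 over all genes. Their summed signals overlapped, at 1323 to 1914 at 24 h and 1091 to 1394 at 48 h. Without the first or the second 24 h array or the first or the third 48 h array 1 fell. The complement genes C1qa, C1qb and C1qc were below background in both groups, and 0 and 1 of the 12 fell with the actin and the Gapdh covariate. Of 12 endothelial markers 2 rose and 2 fell, and the defining genes Pecam1 and Tie1 were below background in both groups. So was Plvap, which was among the called falls (adjusted p = 0.0236, or 0.0843 with the actin covariate). Flt1, the receptor VEGFR1, rose from 41.3, 20.8 and 23.9 to 368, 473 and 221, at least 7.90-fold (adjusted p = 0.000307, or 0.0982 with the Gapdh covariate), while Kdr, the main VEGF receptor, and Cdh5 (-0.12) did not pass.

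Esam, an endothelial adhesion molecule, fell to 28.5 on the first 48 h array and 163 and 195 on the others, from 233 to 398, a call lost with either covariate and without the first or the third 24 h array (largest adjusted p = 0.0942). The endothelial counts of 2 and 2 became 0 falls without the first 24 h array, 1 without the third 24 h or the second or the third 48 h array, and 1 rise without the second 48 h array. Of 6 erythroid markers 5 were below background in both groups, all globin genes measured among them, and 0 passed with limma (0 also at an unadjusted p below 0.05). Of 10 neural markers 3 fell, Elavl4, Nefl and Dcx, with summed signals of 1659 to 1957 at 24 h and 1138 to 1326 at 48 h. Each of the 3 calls was lost with both covariates, and 1 fell without the first or the third 24 h array or the first 48 h array. The part of these cells in the other results was not tested.

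Stress genes that were high in culture fell in part. Of 16 genes of the unfolded protein and amino acid response 4 fell and 4 rose (median -0.09). Chac1, a glutathione-degrading enzyme induced by ATF4, had signals of 1946, 2720 and 2059 at 24 h and 589, 651 and 672 at 48 h, 3.48-fold lower (adjusted p = 9.3e-06). Trib3 and Asns, asparagine synthetase, also induced by ATF4, fell 1.78-fold and 1.64-fold (adjusted p = 0.000164 and 0.000289). Xbp1, a factor of the unfolded protein response, rose 1.49-fold (adjusted p = 0.000104, or 0.0535 with the Gapdh covariate). Chac1 read 353 to 733 after the move to DMSO, overlapping the 48 h arrays. Rises numbered 1 without the third 24 h array and 2 without the third 48 h array.

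Of 14 immediate early genes 4 fell and 2 rose (median -0.38). Egr1, a zinc finger factor induced by growth signals, fell from 6210, 5743 and 6456 to 2578, 2383 and 3517, 2.2-fold (adjusted p = 6.24e-06). Fosl1, an AP-1 subunit, fell 2.47-fold and Fos 1.68-fold, calls that both covariates ended. Of the 2 that rose, Fosl2 rose 1.64-fold (adjusted p = 0.0116), a call lost without the third 48 h array (adjusted p = 0.0603), which left 1 rise. Of 11 heat shock genes the inducible Hspa1b and Hspa1a fell 2.65-fold and 2.25-fold (adjusted p = 1.6e-05 and 0.00011) and Hsph1 rose 1.21-fold, with 2 rising without the second 48 h array. The Hsph1 call was lost with either covariate.

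Among oxidative stress targets of Nrf2 3 of 10 rose and 1 fell (median 0.03). Gstm1, a glutathione transferase, rose from 870, 1083 and 982 to 3546, 3072 and 2569, 3.11-fold (adjusted p = 8.2e-07), against 674 to 881 after the move to DMSO. Srxn1 rose 2.15-fold (adjusted p = 0.000532, or 0.103 with the actin covariate). The 1 fall, Gclc, was lost without the first or the third 24 h or the third 48 h array (largest adjusted p = 0.114). BIO is an indirubin, a class that can also bind the aryl hydrocarbon receptor. Of 8 genes of that receptor 0 passed with limma (2 at an unadjusted p below 0.05), with 1 rise without the third and 1 fall without the first 24 h array, and its most inducible target Cyp1a1 read 148, 61.0 and 105 at 24 h and 21.4, 89.9 and 97.0 at 48 h, with overlap.

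Metabolic lists differed, where 20.8% of all genes changed. Of 20 oxidative phosphorylation genes 0 passed with limma (2 at an unadjusted p below 0.05) and the median was -0.07, close to that of all genes, and 1 rose and 1 fell without the second 48 h array. Of 9 ribosomal protein genes 0 passed (0 also unadjusted, median 0.01). Glycolysis and hypoxia genes rose in 4 and fell in 3 of 19 cases (median 0.03), 2 rising without the first 48 h array. Ndrg1 rose 1.89-fold (adjusted p = 0.00665, or 0.0748 with the actin covariate), and Vegfa, the vascular growth factor, and Pfkp, a phosphofructokinase, fell 1.70-fold and 1.67-fold, calls that both covariates ended.

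Of 17 sterol and fatty acid genes 3 rose and 2 fell (median 0.12), with 1 falling without the third 24 h array or the first or the third 48 h array. Scd1, the stearoyl-CoA desaturase, had signals of 384, 499 and 375 at 24 h and 1359, 1050 and 1508 at 48 h, 3.10-fold higher (adjusted p = 5.06e-06). Its groups did not overlap, and aggregates moved to DMSO were high as well (833 to 1192). Of 13 apoptosis regulators 2 rose and 2 fell, Birc5 among the falls. Bik, a proapoptotic BH3 gene, rose from 71.3 to 112 up to 200 to 269 (2.37-fold, adjusted p = 0.00203, or 0.0548 with the Gapdh covariate). The apoptosis counts fell to 1 rise without the first or the second 24 h array or the second or the third 48 h array, and to 1 fall without the first 24 h or the second 48 h array. Of 8 interferon response genes 0 passed with limma (1 at an unadjusted p below 0.05).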

How the data were processed

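The deposited values were linear signal intensities of Affymetrix mouse 430 2.0 type probe sets (45101 per array), with lowest and highest values of 0.1 and 18025; how the authors computed and scaled these intensities is not given in the sources used here. Values were taken as log2(value + 1) and quantile normalized over all 21 arrays. Of the probe sets, 34945 had 1 symbol, 932 several and 9160 none. The probe set with the highest mean stood for each gene. The 7 group means were fitted with limma 3.58.1 in R 4.3.3, with 14 residual degrees of freedom. At most 0.1885% of values were identical between any 2 of the 6 arrays.

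The members and the 35 gene lists were chosen with earlier results of these data known. Of 540 list genes 500 were measured; the others were not analysed here. Counts of a list are read beside those of all genes, and no list was tested as a set. Genes named by rule were the 15 rises and 15 falls with the largest fitted differences among called genes with groups that did not overlap, the higher mean above background and no provisional symbol, Six2, Cited1, Wnt4, Lhx1, Axin2, Lef1, and up to 4 called members of each list whose higher mean was above background (or the 1 with the largest difference where none passed). Other members were named after their values were seen. Where 1 group mean was below background, each array below it was raised to it before the fold was taken. Alternatives comprised scaling, a dim filter, the mean of probe sets, the 6 arrays alone, log2(value + 16), array weights, a variance trend, a replicate block, both covariates and leaving out each array. The fit was tested on simulated data. Figures were drawn with matplotlib 3.10.9.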

Additional observations from a re-analysis of the deposited data

How the results depend on the processing

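The number of genes that changed moved most with the number of arrays or covariates in the fit. With the 6 arrays alone 1708 changed (752 higher, 956 lower), 1589 of them also in the 3792. With the beta-actin covariate 1481 changed (821 higher, 660 lower; 1301 shared), and with the Gapdh covariate 1308 (718 higher, 590 lower; 1210 shared), of which 804 at least 2-fold. Leaving out 1 array gave 2946 to 3527 changed, 1207 to 1334 higher, 1739 to 2216 lower and 1132 to 1350 at least 2-fold. Replicate numbers did not pair the arrays (correlations of deviations -0.009, 0.0119 and -0.0572), and with the replicate number as a block 3576 changed, 3502 of them shared. The other settings kept each of these counts within 1.5 times. Of the 130 named genes that passed, 32 no longer passed with the 6 arrays alone, 39 and 44 with the covariates, 27 with the mean of probe sets and 11 to 16 with 1 array left out, and 0 of these 130 changed sign. Over all 210 called genes named or on a list, 8 changed sign: Sox11 (-0.21 with the beta-actin covariate), Cdkn2c (0.04 with the Gapdh covariate) and, with the mean of probe sets, Cdc45 (0.59), Cenpe (0.09), Dvl2 (0.19), Meis1 (0.11), Nid1 (0.24) and Uhrf1 (0.25). With the mean of probe sets, falls also went from 4 to 2 for Notch, 3 to 1 for glycolysis, 2 to 0 for sterol and 2 to 1 for apoptosis genes, and rises from 2 to 1 for ureteric bud, endothelial, immediate early and apoptosis genes. Named genes that had not passed and changed sign were Cox6c (0.15 and 0.10 with the beta-actin and Gapdh covariates), Cyp1a1 (1.22 and 1.21), Rps14 (-0.0054 and -0.0523), Lhx1 (-0.18 to 0.51 with 1 array left out), Wnt4 (-0.0175 with median centring, -0.27 with the mean of probe sets, -0.48 and -0.55 with the covariates, -0.0671 to 0.16 with 1 array left out) and Epor (0.0629 with the deposited scaling, 0.18 with array weights, 0.0685 and 0.58 with the covariates, -0.19 to 0.22 with 1 array left out). The cause was not tested. Only 3 arrays a group, and 2 rounds of amplification, limit what can be seen of dim genes: in 105 called genes both group means were below background.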
